A study of Mus musculus with 12 samples.

Results

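Cytokine mRNAs are made to be short-lived, and a small set of RNA-binding proteins decides how long they last. The 10 genes described here were chosen by name. They encode zinc finger proteins that bind AU-rich elements and recruit deadenylases (Zfp36, Zfp36l1 and Zfp36l2), endoribonucleases that cut stem-loops (Zc3h12a and Zc3h12c), the Roquin proteins that recognise stem-loops and recruit deadenylases (Rc3h1 and Rc3h2), AU-rich element binding proteins (Elavl1 and Hnrnpd), and a noncanonical poly(A) polymerase that adds nucleotides to RNA 3′ ends (Tent4b). In macrophages, LPS induces Zfp36 together with the mRNAs that its protein, tristetraprolin (TTP), binds, and TTP and Regnase-1, the product of Zc3h12a, are known for limiting the output of TNF and IL-6. All 10 symbols were found among the 22243 genes of the table, each with 1 gene identifier, and 9 of the 10 passed the filter, a mean TPM of 1 or more (a level scaled for transcript length and library size).

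The libraries came from bone marrow-derived macrophages (BM-Mɸs) grown in M-CSF from mice on a C57Bl/6 background, 6 of them LysMCre/ErbB4-floxxed (ErbB4myeKO) and 6 ErbB4-floxxed without Cre (ErbB4FF), with 1 mouse of each genotype from each of 6 litters. All 12 cultures were M1-activated by IFN-γ (100 U/mL, 16 h) followed by LPS (100 ng/mL, 6 h), so that no unstimulated cells were compared. The age and sex of the mice are not on the labels. Both groups carried the floxed ErbB4 alleles, the Cre is driven from the myeloid Lyz2 locus, and no group carried Cre without the floxed alleles. The comparison asks whether loss of the receptor ErbB4, studied as a brake on cytokine production in activated macrophages, went with a change in these regulators.

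Ratios between genotypes are given below on the log2(TPM + 0.5) scale as the mean ± SD over the 6 litters, and p-values measure the spread between cultures from these litters. The targeted gene did not separate the groups. Erbb4 was 0.583 ± 0.242 TPM in ErbB4myeKO and 0.450 ± 0.132 TPM in ErbB4FF libraries (SD, n = 6 each), a value that sums reads from all exons, floxed or not, so the genotypes are those of the labels. Lyz2, which carries the Cre, had a log2 ratio of -0.59 ± 1.00 and was lower in ErbB4myeKO in 5 of 6 litters (exact permutation p = 0.219). The 8 macrophage markers all passed the filter, and their summed level ranged from 8417 to 12521 TPM in ErbB4myeKO and from 7179 to 15964 TPM in ErbB4FF libraries. Of the 10 neutrophil markers 3 passed the filter (summed level 3.39 to 32.3 TPM in ErbB4myeKO and 4.69 to 24.5 TPM in ErbB4FF), and of the 7 dendritic cell markers 2 did (9.49 to 35.9 and 4.52 to 27.7 TPM). At an unadjusted p under 0.05 in limma, which 8.21% of all genes reached, the macrophage marker Fcgr1 was lower in ErbB4myeKO (log2 ratio -0.86). The neutrophil marker Camp and the dendritic cell marker Xcr1 were higher at that level (0.45 and 0.63). By their mean, 4 macrophage markers were higher and 4 lower, 2 neutrophil markers were higher and 1 lower, and the 2 dendritic cell markers were higher. The part of these markers in the results was not tested. No lymphocyte or erythroid marker passed, and Retnlg, Siglech and Cd209a were at 0 in all libraries. Litter 5 stood apart in both genotypes. Genes whose main transcript is longer than 4 kb were lower there than in the other litters by a median of -0.55 on the log2 scale, and genes whose main transcript is shorter than 2 kb were higher by 0.59. In bulk RNA, fewer cells that express a gene and less RNA per cell cannot be told apart.

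The sequence that TTP and its relatives bind best is a 9-base element, written TTATTTATT in DNA letters. In GENCODE M21 (GRCm38), 6.83% of the 8551 expressed genes (mean TPM of 1 or more) with an annotated 3′ UTR hold it there on the sense strand. Of the 10 regulators, 5 hold it once in the 3′ UTR of their most abundant listed transcript, namely all 3 members of the Zfp36 family and both Roquin genes. These UTRs differ in length, and the share of UTRs within 10% of the same length that hold the element was 4.29% for Zfp36 (774 bases), 8.25% for Zfp36l1 (1835 bases), 8.35% for Zfp36l2 (1822 bases), 31.1% for Rc3h1 (7181 bases) and 19.7% for Rc3h2 (5160 bases). The sites of the Zfp36 family are shown with that of Tnf, the best known TTP target, which holds 5 overlapping copies in a UTR of 764 bases, and that of Cxcl1, a chemokine mRNA with 2 copies. Each is 30 bases of a 3′ UTR read 5′ to 3′ on the strand of the gene, with the first copy of the element in capitals.
Zfp36 (chr7:28376950-28376979, minus strand): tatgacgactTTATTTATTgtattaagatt
Zfp36l1 (chr12:80108166-80108195, minus strand): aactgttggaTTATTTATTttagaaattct
Zfp36l2 (chr17:84184913-84184942, minus strand): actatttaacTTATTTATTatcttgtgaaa
Tnf (chr17:35199688-35199717, minus strand): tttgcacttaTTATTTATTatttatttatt
Cxcl1 (chr5:90892615-90892644, plus strand): atttatgtatTTATTTATTccacaaagtgt
A match is a description of the letters and does not show that the site is bound. The shorter core ATTTA was present in all 10 of these UTRs, from 3 times in Zfp36, Zc3h12a and Elavl1 to 25 times in Rc3h2. The element of 9 bases was not found in the 3′ UTR of the most abundant listed transcript of Zc3h12a, Zc3h12c, Elavl1, Hnrnpd and Tent4b, and other transcripts were not searched. Of the other known target mRNAs listed below, Il23a, Cxcl2, Cxcl3, Csf2, Ptgs2 and Rel hold the element there. The rest, Il6, Il1b and Il12b among them, do not.

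In M1-activated BM-Mɸs the levels of the 10 genes spanned from under 1 to over 100 TPM. Zc3h12a was the most abundant at 96.4 TPM on average over the 12 libraries, followed by Elavl1 at 49.6 TPM and Zfp36 at 22.8 TPM. Zfp36l2 (16.9 TPM), Zc3h12c (16.3 TPM) and Tent4b (13.6 TPM) came next, and Rc3h1 (8.79 TPM), Rc3h2 (8.43 TPM) and Zfp36l1 (8.22 TPM) were lower. Hnrnpd was at 0.487 TPM, the value of 1 of its 11 annotated transcripts, so its place in the order is not that of the gene. Among the 9 pairs of neighbours in the order of mean log2(TPM + 0.5), 3 kept their order in all 6 litters, Zc3h12a above Elavl1, Elavl1 above Zfp36 and Zfp36l1 above Hnrnpd, with differences of 0.94 ± 0.32, 1.16 ± 0.42 and 3.10 ± 0.44 on the log2 scale. Each had a two-sided exact permutation p of 0.0312 over the 64 sign changes of 6 litters, the smallest these can give, and 0.0938 after Benjamini-Hochberg adjustment over the 9 pairs. The other 6 pairs, from Zfp36 and Zfp36l2 down to Rc3h2 and Zfp36l1, did not keep their order in every litter (exact permutation p from 0.0625 to 1). Of these, Tent4b above Rc3h1 came closest, with a difference of 0.51 ± 0.49 in the same direction in 5 of 6 litters, and the other 5 differences were smaller than their SD.

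**Figure D1:**
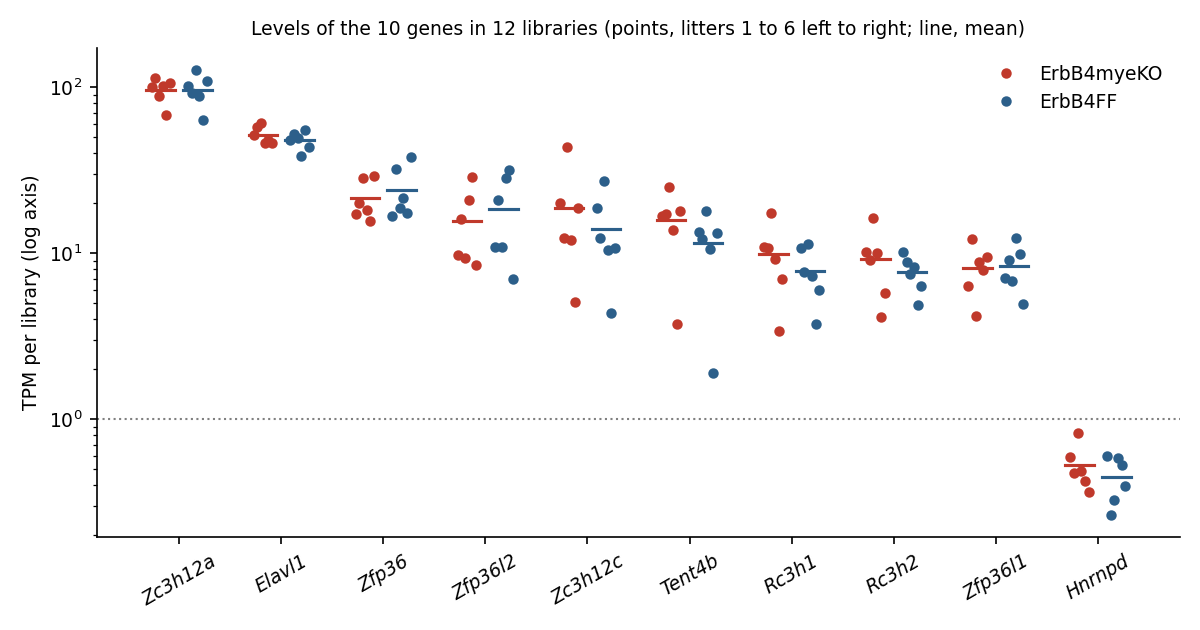
TPM of the 10 genes on a log axis, 1 point per library with litters 1 to 6 from left to right, ErbB4myeKO in red and ErbB4FF in blue, a short line for the mean of 6, and a dotted line at the filter of 1 TPM. The genotypes overlap for every gene, Zc3h12a is highest at 96.4 TPM on average, and Hnrnpd, of which 1 of 11 annotated transcripts is listed, lies below the filter.

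Some of the regulators differed between litters, in about the same share as genes in general. In a test of the litter term of the limma fit, chosen after the values were seen, 4 of the 9 regulators tested had an adjusted p under 0.05, where 44.9% of all 8780 genes did. These were Tent4b (adjusted p = 0.000363), Zc3h12c (0.00116), Zfp36l2 (0.00118) and Rc3h1 (0.00355), all from limma with Benjamini-Hochberg adjustment. Averaged over both genotypes, Tent4b ranged from 2.83 TPM in litter 5 to 21.4 TPM in litter 3, a 7.57-fold range. Zc3h12c ranged from 4.70 to 35.5 TPM (7.54-fold) and Rc3h1 from 3.57 to 14.4 TPM (4.04-fold), also lowest in litter 5 and highest in litter 3. Zfp36l2 went the other way, from 7.73 TPM in litter 6 to 30.3 TPM in litter 5 (3.92-fold). The levels of Elavl1, which encodes the mRNA-stabilising protein HuR, stayed within a 1.31-fold range, and the SD of its litter means was larger than that of 6.56% of all genes tested.

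Litter and the batch letter on the labels coincide, so what set the litters apart cannot be told apart from the batch. The main transcripts of Tent4b, Zc3h12c, Rc3h1 and Rc3h2 are 4597, 6764, 11006 and 8799 bases long, and those of the 3 Zfp36 family genes, Zc3h12a and Elavl1 between 2317 and 3530 bases. The first group was lowest in litter 5, the litter in which long transcripts were low in general. Of the second group, Zc3h12a (65.7 TPM) and Zfp36 (16.5 TPM, with 17.0 TPM in litter 1) were lowest there too. Zfp36l1, Zfp36l2 and Elavl1 were lowest in litters 3, 6 and 4. The part of length in this was not tested. The summed level of 4 Y-linked genes was at most 0.406 TPM in litters 5 and 6 and at least 36.1 TPM in the others, in both genotypes alike. Sex, which these genes mark, therefore cannot be told apart from litter either. Without litter 5, 3 of the regulators differed between litters, Zfp36l2, Zc3h12c and Tent4b (adjusted p = 0.0243, 0.0308 and 0.0494 in limma), where 11.5% of 8710 genes did, and Rc3h1 did not (0.0525).

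**Figure D2:**
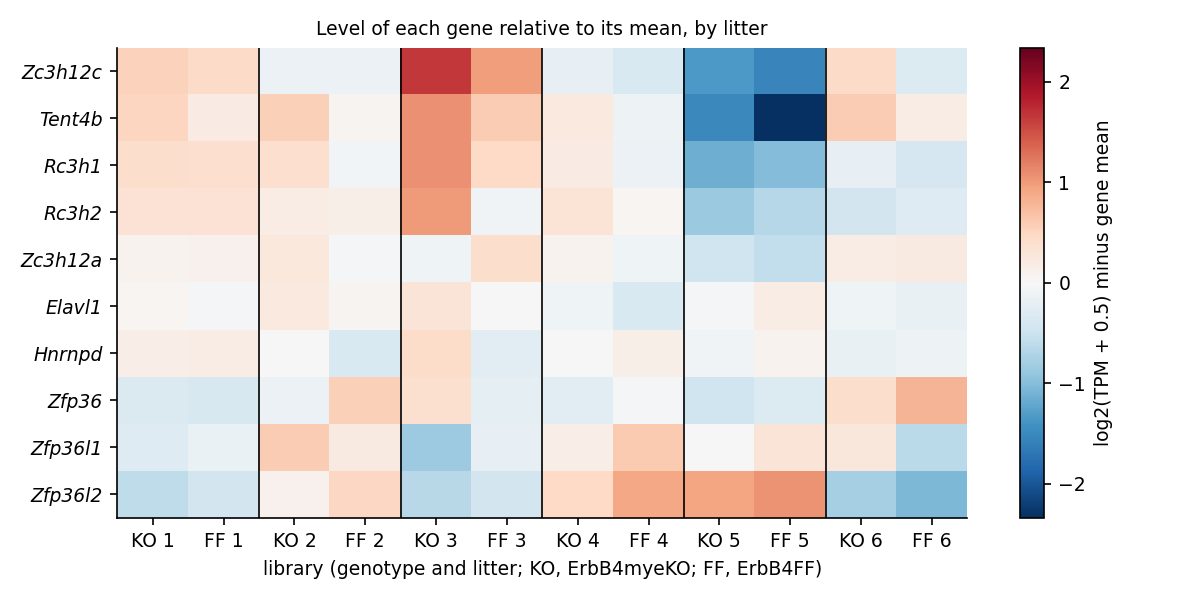
Colour shows log2(TPM + 0.5) minus the mean of each gene (rows) in each library (columns, ErbB4myeKO and ErbB4FF side by side within litters 1 to 6). Zc3h12c, Tent4b and Rc3h1 are high in litter 3 and low in litter 5 in both genotypes, Rc3h2 is low in litter 5 in both but high in litter 3 in ErbB4myeKO alone (16.3 against 7.51 TPM in ErbB4FF), whereas Zfp36l2 is highest in litter 5.

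Between genotypes, limma with litter as a block gave an adjusted p under 0.05 for none of the 9 regulators, and 0 of all 8780 genes did (0%, smallest adjusted p 0.603). At an unadjusted p under 0.05 there were 2, Tent4b and Zc3h12c, both higher in ErbB4myeKO, where 8.21% of all genes reached that level, 3.83% higher and 4.38% lower. Without litter as a block there were 0. By their mean, 6 of the 9 were higher in ErbB4myeKO and 3 lower, and 49.8% of all genes were higher. The median log2 ratio of ErbB4myeKO to ErbB4FF was 0.12 over the 9 regulators and -0.00068 over all genes.

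**Figure D3:**
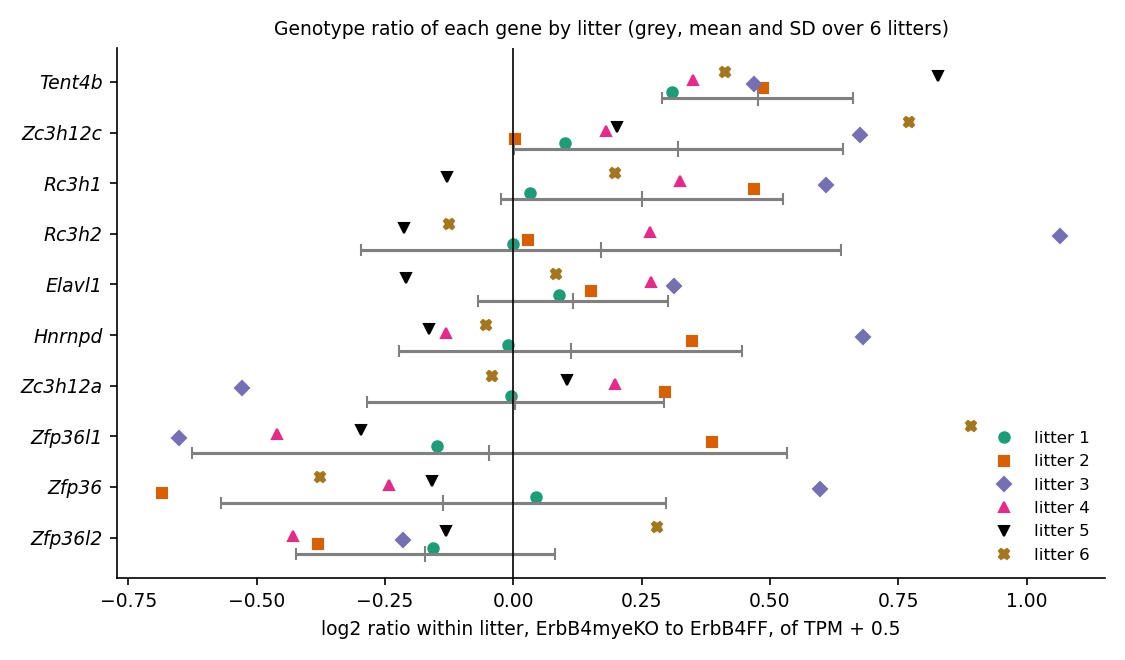
Log2 ratio of ErbB4myeKO to ErbB4FF, of TPM + 0.5, within each litter (symbols) for the 10 genes, with the mean and SD of 6 litters in grey. Tent4b and Zc3h12c lie at or above 0 in 6 of 6 litters, while the other genes lie on both sides of 0.

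Tent4b (ENSMUSG00000036779, chromosome 8 of GRCm38, 88199213 to 88259722) encodes a polymerase that can add mixed tails to mRNAs, which slow deadenylation, and that marks other RNAs for the exosome. It was between 3.76 and 24.9 TPM in ErbB4myeKO (median 17.0) and between 1.90 and 17.9 TPM in ErbB4FF libraries (median 12.7). The ranges of the genotypes overlapped, but ErbB4myeKO exceeded its ErbB4FF littermate in 6 of 6 litters, where 2.51% of all genes were higher and 2.31% lower in all 6. Within litters 1 to 6 the log2 ratio was 0.31, 0.49, 0.47, 0.35, 0.83 and 0.41, on average 0.48 ± 0.19, or 1.39-fold. The exact permutation p over the swaps of genotype within litters was 0.0312, the smallest possible, and limma gave p = 0.000985 and an adjusted p of 0.603 (standard error 0.09). The largest ratio came from litter 5, where both libraries were lowest, and without it the mean was 0.41.

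Tent4b has 2 transcripts in the table, of which ENSMUST00000118952 was present in every library (mean 12.1 TPM). The other, ENSMUST00000119033, was at 7.78 TPM in the ErbB4myeKO library of litter 1, at 3.48 TPM in the ErbB4FF library of litter 4, at 4.13 and 3.40 TPM in the ErbB4myeKO and ErbB4FF libraries of litter 6, and under 0.05 TPM in the other 8. Of the 31-base words of these transcripts, 99.4% and 100% also occur in another of the 5 annotated transcripts of Tent4b. Few words are thus particular to either, and how many differ between these 2 was not counted. By the first transcript alone the log2 ratio was 0.43 ± 0.52, and litter 1 turned to -0.55. It was then higher in 5 litters and lower in 1 (exact permutation p = 0.156). With the most abundant transcript of each gene in place of the sum, Tent4b no longer had an unadjusted p under 0.05 in limma.

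**Figure D4:**
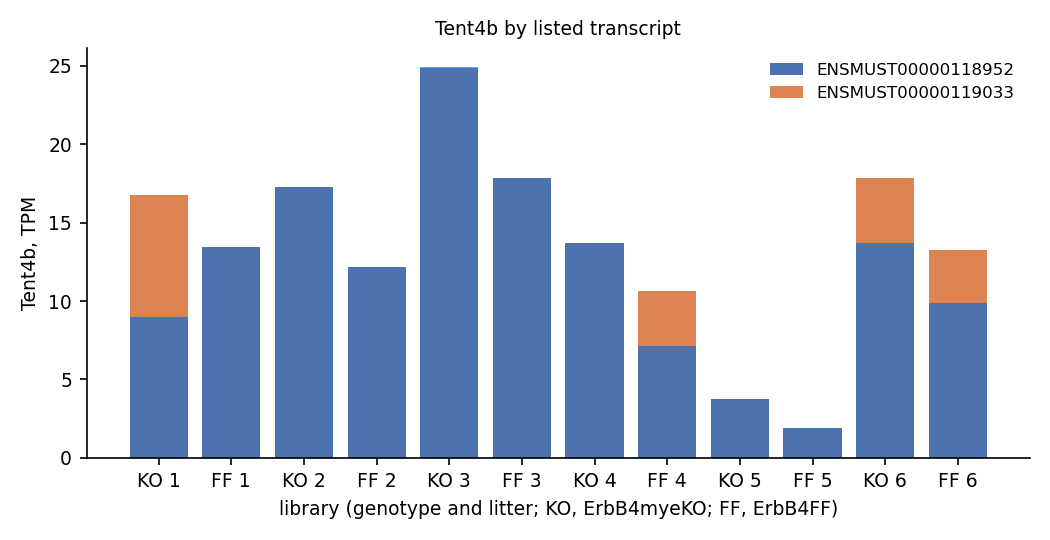
Stacked bars give the TPM of the 2 listed Tent4b transcripts in each library, ErbB4myeKO (KO) and ErbB4FF (FF) side by side within litters 1 to 6. The summed bar is taller in ErbB4myeKO in every litter, and in litter 1 this rests on ENSMUST00000119033, at 7.78 TPM.

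Among the endoribonucleases, Zc3h12c (ENSMUSG00000035164, chromosome 9, 52111344 to 52168572), which encodes Regnase-3, was between 5.07 and 43.8 TPM in ErbB4myeKO (median 15.5) and between 4.34 and 27.2 TPM in ErbB4FF libraries (median 11.5). ErbB4myeKO exceeded ErbB4FF in 6 of 6 litters, but by only 0.0031 in litter 2, and the 2 larger ratios, 0.68 and 0.77, came from litters 3 and 6. The mean log2 ratio was 0.32 ± 0.32 (n = 6; exact permutation p = 0.0312), with p = 0.0341 and an adjusted p of 0.603 in limma. Without litter 3 or litter 6 the unadjusted p in limma was 0.0911 and 0.0974.

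Zc3h12a (ENSMUSG00000042677, chromosome 4, 125118423 to 125127840), the gene of Regnase-1, which cuts Il6 and Il12b mRNA, was at nearly the same level in both genotypes. It was 96.1 ± 16.0 TPM in ErbB4myeKO and 96.7 ± 21.5 TPM in ErbB4FF libraries (SD, n = 6 each), with 3 litters higher and 3 lower. The log2 ratio was 0.0042 ± 0.29 (n = 6; exact permutation p = 1), from -0.53 in litter 3 to 0.30 in litter 2. Its sign turned under some of the alternatives to the processing, with median ratio scaling among them (-0.0057).

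The Roquin genes had similar profiles across libraries. Rc3h1 (ENSMUSG00000040423, chromosome 1, 160906418 to 160974978) was between 3.39 and 17.5 TPM in ErbB4myeKO (median 10.01) and between 3.75 and 11.3 TPM in ErbB4FF libraries (median 7.46). It was higher in ErbB4myeKO in 5 of 6 litters and lower in litter 5, with a mean log2 ratio of 0.25 ± 0.27 (n = 6; exact permutation p = 0.0938). Rc3h2 (ENSMUSG00000075376, chromosome 2, 37370069 to 37422903) was between 4.10 and 16.3 TPM (median 9.49) and between 4.84 and 10.1 TPM (median 7.85). Its mean log2 ratio of 0.17 ± 0.47 (n = 6; exact permutation p = 0.531) rested on litter 3, at 1.06, and was -0.0087 without that litter. Over the 12 libraries, Rc3h1 and Rc3h2 were the closest of all pairs among the 9 regulators, with a root mean square difference of 0.24 between their centred log2 values, and Zfp36l2 and Tent4b were the farthest apart, at 1.53.

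The Zfp36 family was lower in ErbB4myeKO on average, by less than the spread between litters. Zfp36 (ENSMUSG00000044786, chromosome 7, 28376784 to 28380253) was between 15.6 and 29.3 TPM in ErbB4myeKO (median 19.0) and between 16.7 and 38.1 TPM in ErbB4FF libraries (median 20.1), highest in litter 6 in both. Its log2 ratio was -0.14 ± 0.43 (n = 6; exact permutation p = 0.469), and the litters disagreed, with -0.68 in litter 2 and 0.60 in litter 3. The mean moved to -0.28 without litter 3, where its unadjusted p in limma was below 0.05, but to -0.03 without litter 2 and -0.09 without litter 6. Zfp36l2 (ENSMUSG00000045817, chromosome 17, 84183931 to 84187947), a paralogue known in blood cell development, was lower in ErbB4myeKO in 5 of 6 litters, with a log2 ratio of -0.17 ± 0.25 (n = 6; exact permutation p = 0.156). Litter 6 was the exception, at 0.28, and without it the mean was -0.26 with an unadjusted p under 0.05 in limma. It was between 8.52 and 28.9 TPM (median 12.9) in ErbB4myeKO and between 6.93 and 31.7 TPM (median 16.0) in ErbB4FF libraries. Zfp36l1 (ENSMUSG00000021127, chromosome 12, 80107754 to 80113013) had a log2 ratio of -0.05 ± 0.58 (n = 6; exact permutation p = 0.844), from -0.65 in litter 3 to 0.89 in litter 6, and the sign of its mean turned without litter 3, 4 or 5. These are the 3 of the 9 regulators that were lower by their mean.

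Of the AU-rich element binding proteins, Elavl1 (ENSMUSG00000040028, chromosome 8, 4285382 to 4325413) was 51.6 ± 6.31 TPM in ErbB4myeKO and 47.7 ± 6.10 TPM in ErbB4FF libraries (SD, n = 6 each). The log2 ratio was 0.12 ± 0.18 (n = 6; exact permutation p = 0.188), above 0 in 5 of 6 litters and -0.21 in litter 5, and its mean was 0.18 without litter 5 and 0.08 without litter 3. Hnrnpd (ENSMUSG00000000568, chromosome 5, 99955935 to 99978938), which encodes AUF1, was between 0.362 and 0.820 TPM in ErbB4myeKO (median 0.479) and between 0.264 and 0.602 TPM in ErbB4FF libraries (median 0.463), below the filter in every library. The table holds 1 of its 11 annotated transcripts, ENSMUST00000172361, and the other 10 were not analysed here, so that this value is the level of that transcript and not of the gene. Its log2 ratio was 0.11 ± 0.33 (n = 6; exact permutation p = 0.562), above 0 in 2 litters.

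TPM carry no read depth. The means of ln(normalized count) that the authors deposited stand for a geometric mean of 1560 counts for Zc3h12a, 557 for Rc3h1, 365 for Zfp36, 285 for the first Tent4b transcript, 141 for Zfp36l1 and 20.4 for the Hnrnpd transcript, so that Hnrnpd and Zfp36l1 rest on the fewest counts of the 10. Genes with long transcripts were also slightly higher in ErbB4myeKO on average over the litters. Of the 2329 genes with a main transcript over 4 kb, 59.6% were higher (median log2 ratio 0.04), as against 43.1% of the 2939 genes under 2 kb (median -0.03), and Tent4b, Zc3h12c, Rc3h1 and Rc3h2 are all in the first class. By litter, the median of the first class was 0.12 in litter 6, 0.06 in litter 2 and from -0.01 to 0.03 in the others. The part of length in the ratios of Tent4b, Zc3h12c, Rc3h1 and Rc3h2 was not tested.

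The enzymes that these proteins recruit are the common machinery of mRNA decay. For the counts that follow, the shares over all genes were 8.21% at an unadjusted p under 0.05 in limma, 3.83% higher and 4.38% lower. In all 6 litters, 2.51% of all genes were higher in ErbB4myeKO and 2.31% lower. Of 18 deadenylase genes, which cover the CCR4-NOT and PAN complexes, 15 passed the filter, and at an unadjusted p under 0.05 in limma there were 0 (adjusted: 0), with a median log2 ratio of -0.03. Cnot11 had the largest log2 ratio, 0.24 ± 0.32, and Cnot2 the smallest, -0.18 ± 2.02, the latter with a range from -3.86 to 1.86. Of 16 decapping and 5′ decay genes 14 passed, with 2 lower at an unadjusted p under 0.05, Lsm3 and Lsm6, subunits of the LSM ring that promotes decapping (-0.18 ± 0.10 and -0.24 ± 0.25), and a median of 0.01. Lsm3 was 32.9 ± 13.7 TPM in ErbB4myeKO and 36.8 ± 12.8 TPM in ErbB4FF libraries (SD, n = 6 each) and lower in ErbB4myeKO in 6 of 6 litters. At the ends of that list were Edc4 (1.01 ± 1.78) and Lsm7 (-0.84 ± 1.92), each with a spread larger than its mean.

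Of 15 genes of the RNA exosome and the Ski complex, which degrade RNA from the 3′ end, 13 passed. At an unadjusted p under 0.05 in limma, where 3.83% of all genes were higher, 1 was higher, Exosc1, at 0.40 ± 0.40. It was no longer at that level without litter 2, 4, 5 or 6, with log2 ratios of 0.27, 0.38, 0.41 and 0.39. The median of that list was 0.04, and its lowest was Exosc5 at -0.19 ± 0.46. Of 13 other terminal nucleotidyltransferase and poly(A) polymerase genes 10 passed, with 0 at an unadjusted p under 0.05 in limma and a median of -0.09, which was -0.17 without litter 3 and -0.00012 without litter 5. The ends of that list were Mtpap, the mitochondrial poly(A) polymerase (0.10 ± 0.09), and Papola, the nuclear one (-0.28 ± 0.84, at 0.775 TPM in ErbB4myeKO and 4.41 TPM in ErbB4FF of litter 5).

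Of 23 other AU-rich element and cytokine mRNA binding proteins 14 passed, with a median of 0.08, which was 0.02 without litter 1 and -0.02 without litter 2. At an unadjusted p under 0.05 in limma, where 4.38% of all genes were lower, Zc3h12d, which encodes Regnase-4, was lower (-0.45 ± 0.52). It was lower in 6 of 6 litters, as 2.31% of all genes were. Zc3h12d was 12.4 ± 3.83 TPM in ErbB4myeKO and 17.6 ± 6.71 TPM in ErbB4FF libraries (SD, n = 6 each). Its largest ratio, -1.45, came from litter 2, and without that litter the mean was -0.26. Cpeb4 (0.31 ± 0.49) and Igf2bp2 (-0.67 ± 1.19) stood at the ends of the list. Of 19 genes of the p38-MK2 pathway and of phosphatases and partners that control the phosphorylation of TTP, 17 passed, with a median of -0.04 and 1 lower at an unadjusted p under 0.05. This was Dusp1, the phosphatase that switches off p38, at 218 ± 87.4 TPM in ErbB4myeKO and 283 ± 108 TPM in ErbB4FF libraries (SD, n = 6 each). Its log2 ratio was -0.39 ± 0.29, below 0 in 6 of 6 litters (exact permutation p = 0.0312). Its p in limma was 0.00734 and its adjusted p 0.603. Malt1, a protease that cleaves Regnase-1 and Roquin, had the largest log2 ratio of that list, at 0.13 ± 0.17.

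Among the mRNAs known to be bound by these proteins, limma called none after adjustment (smallest adjusted p 0.603). All 20 passed the filter, with 16 higher and 4 lower in ErbB4myeKO by their mean, where 49.8% of all genes were higher, and a median log2 ratio of 0.41. At an unadjusted p under 0.05 in limma, 4 were higher, Il12b, Cxcl1, Cxcl3 and Ptgs2, and 0 lower, where 3.83% and 4.38% of all genes were. The largest mean was that of Cxcl3, 1.26 ± 1.39, and the lowest that of Nfkbid, -0.79 ± 2.13, which was near 0 TPM in the ErbB4myeKO library of litter 1. Several of these cytokines are among those the study names from these same samples, so the count is not independent evidence of a direction. Litter 2 had a large part in these values. Without it the median of the 20 was 0.19, the log2 ratios of Cxcl3, Cxcl1, Il12b and Ptgs2 moved from 1.26, 1.14, 1.19 and 0.60 to 0.77, 0.71, 0.75 and 0.38. Il12b and Ptgs2 no longer had an unadjusted p under 0.05 in limma without litter 2, 4 or 6, nor Cxcl3 without litter 4. Of the genes named from the lists at that level, Dusp1, Cxcl1 and Fcgr1 stayed there whichever litter was left out, and each of the others lost it without at least 1 litter.

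The ratios of the targets were set beside those of Zfp36 and Zc3h12a litter by litter. In litter 2 the median log2 ratio of the 20 targets was 1.59 and 18 were higher in ErbB4myeKO, with Zfp36 at -0.68 and Zc3h12a at 0.30. In litter 4 the targets had 0.63, Zfp36 -0.24 and Zc3h12a 0.20. In litter 6 the targets had 0.35, Zfp36 -0.38 and Zc3h12a -0.04. Litter 3, the only one with a clearly higher Zfp36 in ErbB4myeKO (0.60), had a target median of -0.01 and a Zc3h12a ratio of -0.53, and litters 1 and 5 had target medians of 0.11 and -0.16 with Zfp36 at 0.04 and -0.16. Zfp36 was lower in ErbB4myeKO in the 3 litters with the largest target medians, as it was in litter 5. In litters 2, 4 and 6, Zfp36l1 was at 0.39, -0.46 and 0.89, and Zfp36l2 at -0.38, -0.43 and 0.28. These are 6 litters compared after their values were seen, and no test was made.

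**Figure D5:**
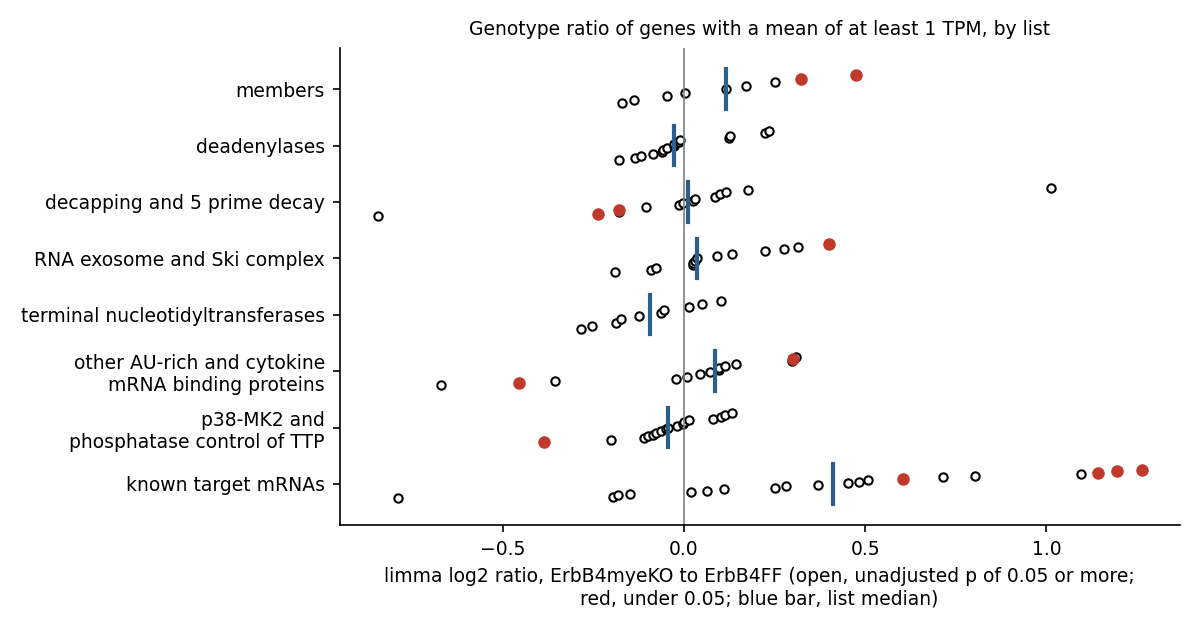
Each point is the limma log2 ratio of ErbB4myeKO to ErbB4FF of 1 gene that passed the filter, by list, with red for an unadjusted p under 0.05 and a blue bar for the list median. The medians of the regulators and the decay machinery lie between -0.09 and 0.12, and that of the known target mRNAs at 0.41.

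Among all genes that passed the filter, those whose centred log2 values over the 12 libraries were closest to Zfp36 were Ust, Rhoq and Gtf2a1, with root mean square differences of 0.21, 0.23 and 0.23. Among the 3 closest to Tent4b were Nfe2l1 and Ptpn12, at 0.24 and 0.25.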

How the data were processed

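Reads of 75 bases were pseudoaligned by the authors with kallisto, and the deposited TPM cover APPRIS principal transcripts only and hold 58.98% to 74.74% of the full TPM sum of a library. Per transcript, the authors also deposited a sleuth mean on the natural log scale of normalized counts, used here for precision only, and the authors' p-values, q-values and ratios, which were not used. Tool versions are not given in the sources used here, and mm10 is the build in the submitters' notes. Of 29213 lines, 405 repeat a transcript and were dropped, and 35 symbols turned into dates were mended from GENCODE M21 (GRCm38), which holds all 28808 transcripts, 27647 of them with the same version. It also gave positions, lengths and 3′ UTRs.

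Transcripts of a gene were added up, and log2(TPM + 0.5) of the 8780 genes whose mean TPM was 1 or more entered limma 3.58.1 in R 4.3.3 (trend) with litter as a block, with Benjamini-Hochberg adjustment over all of them. Single genes were tested by two-sided exact permutation over 64 swaps within litters, and values were computed with Python 3.11.15, numpy 2.4.6 and pandas 2.3.3. The steps were tested on simulated data. The number of a library marks its litter, and littermates deviated together from their group means (r from 0.273 to 0.774 across genes). Genes were named by a fixed rule (the 10 regulators, the 2 ends of each list, the 3 genes closest to Zfp36 and to Tent4b, Erbb4, Lyz2), besides those with an unadjusted p under 0.05 in a list, and Tnf, Zfp36 and Zc3h12a by litter, chosen after their values were seen. The 10 genes and the lists were chosen with earlier results of these data known. One gene that this rule names is not reported here.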

Additional observations from a re-analysis of the deposited data

Results flagged for a closer look

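Tent4b in litter 5 stood apart from the other litters in both genotypes on the log2(TPM + 0.5) scale. The ErbB4FF library was at 1.26, with the next lowest at 3.48, and the ErbB4myeKO library at 2.09, with the next lowest at 3.83. The gap to the nearest library was 0.754 and 0.674 of the whole range, above Dixon's critical value for 6 samples. Among the 20 groups tested (10 genes in 2 genotypes), chance gives about 1 in 20, and on the TPM scale none stood apart. The log2 scale was added after the values were seen.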

How the results depend on the processing

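The 2 of the 9 regulators with an unadjusted p under 0.05 in limma became 0 without the replicate block for litter, and the count over all genes moved from 721 to 75. With a covariate from 4 Y-linked genes, in which littermates were alike so that it is no check on sex, there was 1 (Tent4b) among 297 genes, with the most abundant transcript alone 1 (Zc3h12c), and with equal sums 3 (Rc3h1 besides). With 1 litter left out there were between 2 and 4, the 4 without litter 5 being Tent4b, Zc3h12c, Rc3h1 and Elavl1 and the 2 without litter 3 or litter 6 being Tent4b with Zfp36 or with Zfp36l2, both lower in ErbB4myeKO and in place of Zc3h12c, among 413 (without litter 2) to 864 genes. Of all genes, between 0 and 1 had an adjusted p under 0.05, the 1 without litter 3, and of the regulators 0 under any alternative. Zfp36 was at -0.0013 with the Y-linked covariate. Tent4b stayed between 0.41 and 0.51 and Zc3h12c between 0.23 and 0.39, with adjusted p between 0.499 and 1.00. The sign of Zc3h12a turned with median ratio scaling (-0.0057) and with the Y-linked covariate (-0.042), and with 1 litter left out it lay between -0.054 and 0.11, Zfp36l1 between -0.23 and 0.074, and Rc3h2 between -0.0087 and 0.25. With 1 litter left out, the median log2 ratio lay on both sides of 0 for the deadenylases, the decapping genes and the other AU-rich element binding proteins. A pseudocount of 0.1 or 1, no filter, a mean of at least 5 TPM, equal sums and no trend turned no sign of the 9. The count of neighbouring pairs in the same order in every litter was 3 with either pseudocount, median ratio scaling, the most abundant transcript alone or any 1 litter left out, but without litter 1 or litter 3 the neighbour above Hnrnpd was Rc3h2 or Rc3h1 in place of Zfp36l1. Depth is not in TPM, which limits Hnrnpd and Zfp36l1 most.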
